A study of Mus musculus with 11 samples.

Results

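The nuclear-encoded oxidative phosphorylation genes code for the protein subunits of the mitochondrial respiratory chain and of ATP synthase that are made from chromosomes of the nucleus. They were taken from the deposited count table as protein-coding genes whose mouse symbols start with Nduf followed by a, b, c, s or v, with Uqcr, with Cox4 to Cox8 or with Atp5, or are Sdha, Sdhb, Sdhc or Sdhd, with a mean of at least 1 CPM, the count scaled to the library total, over the 11 libraries. Of the 39179 genes in the table, 96 had such a symbol. Pseudogenes made up 11 of these and 10 coding genes lay under the minimum, which left 75 members. By symbol, 37 belonged to complex I, 4 to complex II, 8 to complex III, 11 to complex IV and 15 to complex V. The members nearest the minimum were Cox7c at 7.40 CPM and Atp5g1 at 8.34 CPM, and the highest genes under it were Atp5l at 0.978 CPM and Cox4i2 at 0.823 CPM.

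Complexes I and II take electrons from NADH and from succinate, complex III passes them on to cytochrome c, and complex IV, cytochrome c oxidase, hands them to oxygen. Complexes I, III and IV pump protons across the inner mitochondrial membrane, and complex V, ATP synthase, uses that gradient to make ATP. Dividing neural progenitors of the germinal zones rely strongly on glycolysis, and neurons made from them rely more on oxidative phosphorylation.

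The libraries came from GFP-positive cells sorted from the V-SVZ, the ventricular-subventricular zone where neural progenitors line the lateral ventricles, in CD1/Swiss mice at postnatal day 2. All animals carried Gsh2-Cre, which expresses Cre recombinase from regulatory sequence of a gene of the ventral forebrain, and RCE, a reporter that makes GFP in cells that have had Cre and in their offspring. The 6 control libraries were from Gsh2-Cre; Zeb2fl/wt;RCE animals, with 1 floxed and 1 wild-type allele. Zeb2 codes for a transcription factor with zinc fingers that acts in neural development. The 5 libraries labelled mutant were from Gsh2-Cre; Zeb2fl/ko;RCE animals, with 1 floxed and 1 null allele, so that 1 allele was missing in every cell of these animals and not only in the sorted lineage. By this design, a control cell in which Cre has acted keeps 1 working allele. The labels do not say that the libraries came from separate animals, so each p-value rests on the scatter among libraries, which may be technical.

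The total count was between 6833981 and 13073505 per library. Zeb2 had 1650, 3277, 2184, 2553, 2527 and 1669 counts in controls 1 to 6, and 4754, 2574, 3086, 4508 and 2573 in mutants 1 to 5. By library total this was 239 ± 48.9 CPM in controls (SD, n = 6) and 302 ± 71.5 CPM in mutants (n = 5; exact two-sided permutation test, p = 0.117). The gene-level count was thus not lower in the libraries labelled mutant. A count over the whole gene does not show whether a floxed part was removed and so does not check the genotype. "Mutant" is used below by the label alone. A list of 14 markers summed to 7150 to 9163 CPM in controls and 7278 to 8148 CPM in mutants, with much of this from Tubb3 and Dcx, which mark young neurons in general. Without these and Sox11, the 11 genes of ventral forebrain progenitors and GABAergic neurons, such as Dlx1, Dlx2 and Gad1, summed to 2671 to 4063 CPM in controls and 3021 to 3713 CPM in mutants. Counts of 4 Y-linked genes were present in controls 1, 2, 3 and 6 and in no mutant library.

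Sequences upstream of these genes were read because the known regulators of respiratory genes bind short motifs close to the start sites. RefSeq windows of 250 bases before to 50 bases after the first listed start (build GRCm38.p6) were found for 63 of the 75 members. Both strands were searched for CGCATGCG, the palindromic core of the NRF1 site, for CCGGAAG, the site of the ETS factor GABP, for AAGATGGCG, bound by YY1, and for TCAAGGTCA, bound by estrogen-related receptors. The NRF1 letters were present in 6 of the 63 windows (9.52%) and in 2.55% of 17485 windows of coding genes. The GABP letters were present in 14 (22.2%, against 11.9%), the YY1 letters in 6 (9.52%, against 1.94%) and the receptor letters in 2 (3.17%, against 0.332%). A match describes these letters only and is not a site shown to be bound. The following stretches, each on the strand of its gene, show members with an NRF1 match, a receptor match or a GABP match upstream of the RefSeq start, with the matching letters in capitals. They lie at chr17:56717678-56717735 (Ndufa11, plus strand), chr5:115349087-115349144 (Cox6a1, minus strand), chr5:108434416-108434473 (Atp5k, minus strand), chr2:73911345-73911403 (Atp5g3, minus strand) and chr4:116075071-116075105 (Uqcrh, minus strand).
Ndufa11: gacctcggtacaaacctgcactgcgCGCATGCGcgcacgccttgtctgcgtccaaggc
Cox6a1: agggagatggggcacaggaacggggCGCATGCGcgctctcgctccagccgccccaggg
Atp5k: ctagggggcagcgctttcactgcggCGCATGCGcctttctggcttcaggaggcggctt
Atp5g3: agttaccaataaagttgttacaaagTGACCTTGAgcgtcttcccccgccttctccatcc
Uqcrh: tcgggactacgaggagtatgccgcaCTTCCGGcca
The Atp5g3 and Uqcrh matches read in reverse complement on the gene's strand. The Cox6a1 window also held the GABP letters, nearer the start and apart from the NRF1 match. The Atp5k match lies before the RefSeq start used but inside the gene as GENCODE M21 bounds it, chr5:108433244-108434448.

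No subunit gene of any of the 5 complexes passed the test between mutant and control cells. The 75 members were all tested, and 0 were called higher and 0 lower with edgeR's quasi-likelihood test at an adjusted p of 0.05, where 4.42% of all 14104 genes tested were called, 2.68% higher and 1.74% lower. DESeq2 and limma-voom also called 0 members in either direction. At an unadjusted p under 0.05, 0 members lay higher and 10 lower, beside 8.96% and 8.35% of all genes. No member had its 2 groups of libraries apart, in either direction, which was so for 2.89% (higher) and 2.03% (lower) of all genes. The smallest adjusted p of a member was 0.124.

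The fitted differences were small and mostly of 1 sign. The log2 fold change, mutant over control, was negative for 64 members and positive for 11, whereas 52.2% of all genes tested had a negative and 47.8% a positive value. Its median was -0.19 over the members, a fold of 0.880, and -0.02 over all genes tested. The members ranged from -0.44 to 0.33, and 42 of the 75 lay within 0.2 of zero. All 5 mutant libraries lay below the control mean for 34 members, against 16.4% of all genes. For 0 members did all 5 lie at or above it, against 12.8% of all genes. Control 1, the highest library for 55 members, raises the control mean, and these counts were not repeated without it. In the main fit, the whole 95% interval lay within a 1.5-fold difference either way for 47 members. For all 75 it lay within 2-fold, the widest bounds being folds of 0.569 and 1.85. These intervals hold for that fit and its scatter among libraries only. With length and GC trends removed, Atp5f1 had a log2 fold change of -0.69, outside its interval of the main fit. In bulk samples, fewer cells of a type and less RNA per cell cannot be told apart.

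The median moved most with 1 library but stayed negative without it. Without control 1 it was -0.09, with 59 members negative, and without each other library in turn it lay between -0.22 and -0.13. The count of members with an unadjusted p under 0.05 also moved with single libraries: it was 5 without control 4, mutant 3 or mutant 4, 6 without control 1 or mutant 1, 16 without control 2 and 17 without control 6. The median was as large in libraries that matched in Y-linked counts: -0.23 over controls 4 and 5 and the 5 mutants, and -0.25 with the Y-linked level as a covariate. The first value rests on 2 controls, whose median deviations, described below, were 0.26 and 0.08, above those of all 5 mutants.

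**Figure D1:**
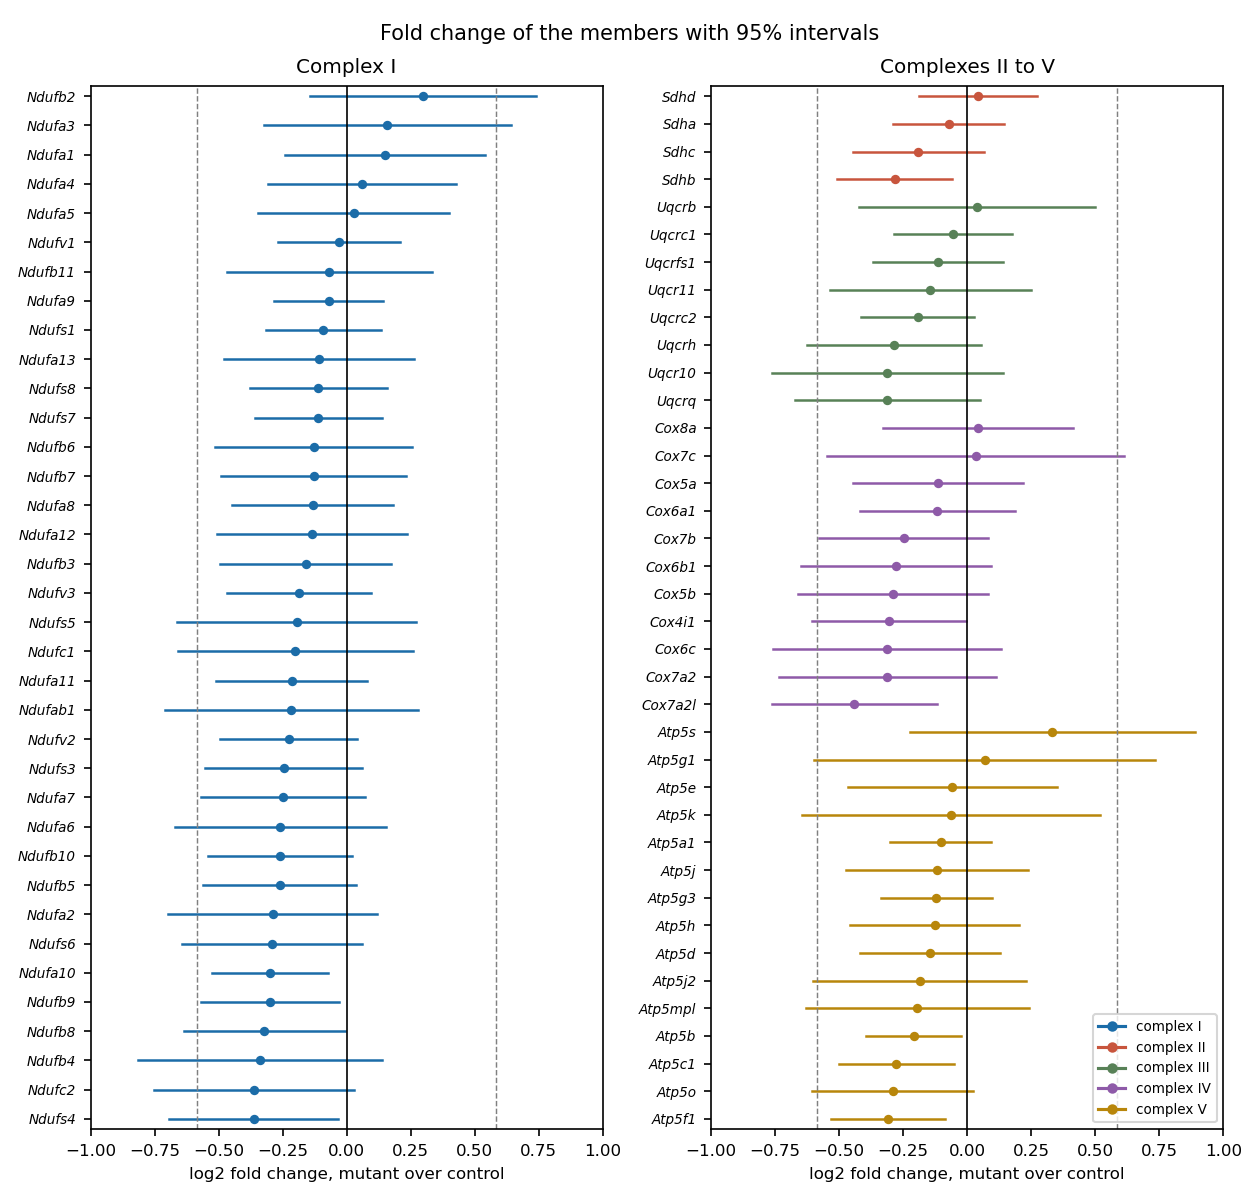
Log2 fold change, mutant over control, of the members (points), 1 of which is not shown, with 95% intervals (lines) from edgeR, grouped by complex, with dashed lines at a 1.5-fold difference either way. Most points lie left of zero, as did 64 of all 75 members, and none passed the adjusted threshold.

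Control 1 carried the highest level of most of these genes. It was the highest of the 11 libraries for 55 of the 75 members, against 12.6% of all genes tested. Its total count, 6833981, was the lowest of the 11. The other control libraries did not share one level. Expressed as the median deviation of the members from each gene's mean over the 11 libraries, on the log2(CPM + 1) scale, controls 1 to 6 lay at 0.44, -0.19, 0.02, 0.26, 0.08 and -0.12. Mutants 1 to 5 lay at -0.17, 0.02, -0.24, -0.02 and -0.02. The groups overlap, with control 2 below 4 of the mutants and control 6 below 3 of them. Mutant 3, the lowest library, had the lowest value of 21 members. The control libraries were more spread: the median coefficient of variation over the members was 19.2% in controls and 13.9% in mutants, where all genes tested had 25.4% and 22.9%.

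The summed counts gave the same picture. The members took 1.27% ± 0.129 of all counts in controls (SD, n = 6; 1.10% to 1.46%) and 1.11% ± 0.0511 in mutants (n = 5; 1.04% to 1.18%). The ATP synthase alpha and beta subunits, Atp5a1 and Atp5b, alone made up 27.8% to 34.6% of the members' counts in a library.

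**Figure D2:**
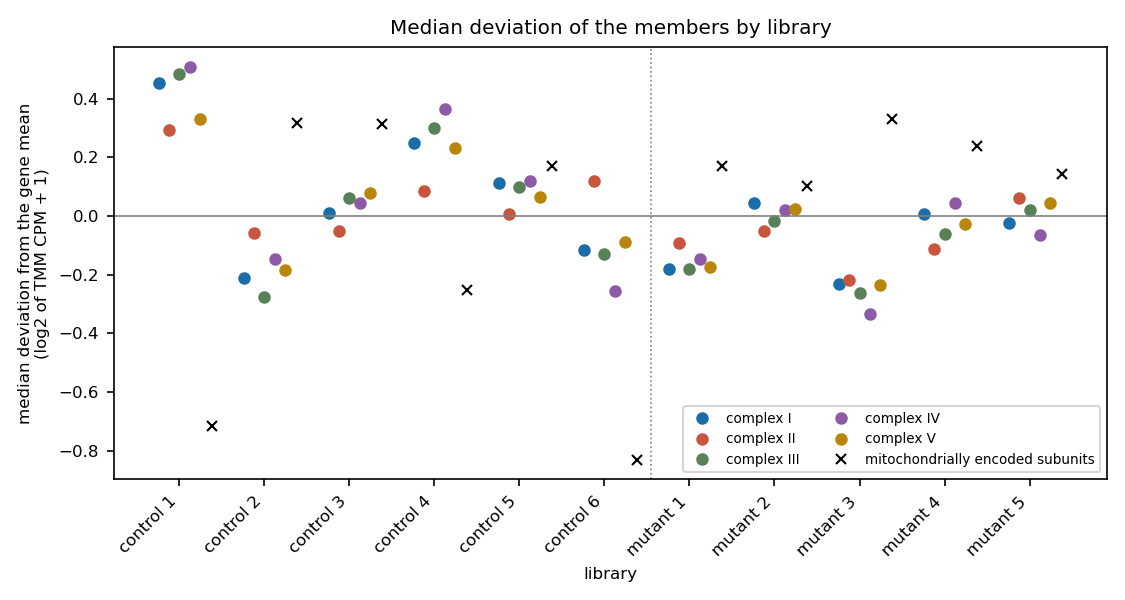
Median deviation of the members of each complex (dots), and of the mitochondrially encoded subunits (crosses), from each gene's mean over the 11 libraries (log2(CPM + 1) scale), for each control and mutant library. Control 1 is highest for complexes I to V, at 0.29 to 0.51, and low for the mitochondrially encoded subunits, at -0.72.

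Complex I, the NADH dehydrogenase, had a median log2 fold change of -0.19 over its 37 members, 32 of them negative, and 4 members with an unadjusted p under 0.05 (Ndufa10, Ndufb8, Ndufb9 and Ndufs4). Its nuclear-encoded core subunits carry the electron path from NADH through flavin and iron-sulfur clusters. Among them, Ndufv1, which binds NADH and flavin, had a log2 fold change of -0.03 and Ndufv2 one of -0.23. Ndufs1, Ndufs3, Ndufs7 and Ndufs8 lay between -0.25 and -0.09. The supernumerary subunits, which stabilise the complex, spread more widely, from -0.36 in Ndufs4 to 0.30 in Ndufb2.

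Ndufa10, a supernumerary subunit (chr1:92439010-92473860, minus strand, GRCm38), had levels of 187 CPM at the lowest, 226 at the median and 253 at the highest in controls, and 161, 175, 195, 165 and 198 CPM in mutants 1 to 5. Its log2 fold change was -0.30 (SE 0.11, edgeR adjusted p = 0.144), the smallest adjusted p of complex I. The 2 highest mutants, 3 and 5, lay above the lowest control. Ndufb9, a subunit of the membrane arm with the highest level per kb of exon in complex I, ran from 158 through 179 to 258 CPM in controls and was at 156, 169, 151, 140 and 169 CPM in mutants. Its log2 fold change was -0.30 (SE 0.13, adjusted p = 0.235), and only mutants 1, 3 and 4 lay below every control. Ndufs4, whose loss causes mitochondrial disease in humans and mice, had 110, 150 and 184 CPM as the lowest, median and highest control and 121, 139, 109, 103 and 96.3 CPM in mutants (log2 fold change -0.36, SE 0.15, adjusted p = 0.235).

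Ndufc2, a membrane-arm subunit, ran from 79.8 through 112 to 185 CPM in controls and was at 93.0, 101, 86.2, 108 and 74.0 CPM in mutants (log2 fold change -0.36, SE 0.18, adjusted p = 0.332). Only mutant 5 lay below every control. Ndufb2 had the highest positive value in the complex, but its exons overlap those of Braf on the opposite strand, and the counting strand is not given in the sources used here.

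Complex II, succinate dehydrogenase, is also an enzyme of the citric acid cycle and has no mitochondrially encoded subunit. The flavoprotein Sdha was at 367, 404 and 477 CPM as the lowest, median and highest control and at 384, 385, 346, 362 and 467 CPM in mutants (log2 fold change -0.07, SE 0.10, adjusted p = 0.781). The iron-sulfur subunit Sdhb was at 284, 344 and 399 CPM in controls and at 283, 283, 263, 279 and 294 CPM in mutants. Its log2 fold change was -0.28 (SE 0.11, adjusted p = 0.168), and 4 of 5 mutants lay just below the lowest control while mutant 5 did not. The 2 membrane anchors gave values of opposite sign, -0.19 (SE 0.12, adjusted p = 0.455) for Sdhc and 0.04 (SE 0.11, adjusted p = 0.890) for Sdhd. The signs of Sdha and Sdhd both turned among libraries without Y-linked counts, to 0.09 and -0.03.

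Complex III, the cytochrome bc1 complex, had a median of -0.17, with 7 of 8 members negative and 0 with an unadjusted p under 0.05. The Rieske iron-sulfur protein Uqcrfs1, the member of this complex with the highest level per kb, was at 217, 221 and 306 CPM as the lowest, median and highest control and at 234, 253, 225, 226 and 198 CPM in mutants (log2 fold change -0.11, SE 0.12, adjusted p = 0.693). The core protein Uqcrc1 had a log2 fold change of -0.05 (SE 0.11, adjusted p = 0.854) and its partner Uqcrc2 one of -0.19 (SE 0.10, adjusted p = 0.358). Uqcrc2 was at 272, 326 and 388 CPM in controls and at 260, 296, 271, 319 and 293 CPM in mutants. Of the small subunits, Uqcrq had a value of -0.31 (SE 0.17, adjusted p = 0.369).

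Complex IV had the most negative median, -0.28, with 9 of 11 members negative. Cox7a2l, which takes part in joining complex III and complex IV into supercomplexes, had the most negative value of all 75 members. It lies at chr17:83501918-83517330 (minus strand, GRCm38) and was at 80.2, 99.0 and 125 CPM as the lowest, median and highest control and at 75.5, 82.9, 62.7, 88.5 and 57.8 CPM in mutants 1 to 5. The log2 fold change was -0.44 (SE 0.15, adjusted p = 0.126), with a 95% interval of the fold from 0.590 to 0.920. Mutants 1, 3 and 5 lay below every control, and mutants 2 and 4 lay within the control range. Cox4i1, a regulatory subunit, was at 413, 503 and 701 CPM in controls and at 390, 484, 343, 447 and 487 CPM in mutants (log2 fold change -0.31, SE 0.14, adjusted p = 0.275). Its exons overlap those of Emc8 on the opposite strand.

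Several complex IV subunits come as paralogous isoforms that differ between tissues, and the sorted cells had counts of the widely expressed forms. Cox4i1 was abundant, and Cox4i2, its lung and oxygen-responsive form, had 97 counts over all 11 libraries. Cox6a1, Cox6b1, Cox7a2 and Cox8a were all members, while the muscle forms Cox6a2, Cox7a1 and Cox8b had 2, 63 and 1 counts and the testis forms Cox6b2, Cox7b2 and Cox8c had 91, 15 and 3. These low isoforms did not pass the filter on low counts and were not tested. The members' values were -0.12 for Cox6a1 (SE 0.14, adjusted p = 0.741), -0.28 for Cox6b1 (SE 0.17, adjusted p = 0.453) and -0.31 for Cox7a2 (SE 0.20, adjusted p = 0.461). Cox7b gave -0.25 (SE 0.16, adjusted p = 0.451) and Cox8a 0.04 (SE 0.17, adjusted p = 0.933). Ndufa4, which carries a complex I symbol but is known as a subunit of complex IV, gave 0.06 (SE 0.17, adjusted p = 0.903), and its paralog Ndufa4l2, a target of the hypoxia response, had 15 counts in all. The signs of Cox8a and Ndufa4 turned when single libraries were left out, with lowest values of -0.03 and -0.02.

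Complex V had a median of -0.13, with 13 of 15 members negative. Atp5b, the catalytic beta subunit (chr10:128083273-128090391, plus strand, GRCm38), was the most abundant member and was at 2404, 2660 and 2891 CPM as the lowest, median and highest control and at 2197, 2520, 2220, 1994 and 2561 CPM in mutants. Its log2 fold change was -0.21 (SE 0.09, adjusted p = 0.221), and mutants 1, 3 and 4 lay below every control. The alpha subunit Atp5a1 was at 1086, 1274 and 1458 CPM in controls and at 1142, 1336, 1220, 1092 and 1198 CPM in mutants (log2 fold change -0.10, SE 0.09, adjusted p = 0.627), with all 5 mutants inside the control range. Atp5c1, the gamma subunit of the rotating shaft, had a log2 fold change of -0.28 (SE 0.11, adjusted p = 0.180).

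The smallest adjusted p among the 75 members belonged to Atp5f1, a subunit of the peripheral stalk (chr3:105942698-105960099, minus strand, GRCm38). It was at 230, 270 and 310 CPM as the lowest, median and highest control and at 226, 215, 254, 213 and 190 CPM in mutants. The log2 fold change was -0.31 (SE 0.11, adjusted p = 0.124), with an interval of the fold from 0.691 to 0.943, and 4 of 5 mutants lay below every control while mutant 3 did not. Its exons overlap those of Wdr77 on the opposite strand. The most positive member was Atp5s, an accessory factor and no structural subunit, at 0.33 (SE 0.26, adjusted p = 0.565), a gene at 5.64 to 13.2 CPM in all libraries.

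The ring of c subunits that turns in the membrane is encoded by paralogous genes for the same mature protein. Atp5g3 was the main source of counts, at 139, 172 and 194 CPM as the lowest, median and highest control and at 148, 162, 154, 159 and 154 CPM in mutants (log2 fold change -0.12, SE 0.10, adjusted p = 0.601). All 5 mutants lay within the control range. Atp5g1 was at 8.20 CPM by library total in controls and 8.503 CPM in mutants (log2 fold change 0.07, SE 0.31, adjusted p = 0.941), and Atp5g2 had 34 counts over all libraries. The sign of the Atp5g1 value turned without control 1, control 2 or mutant 2, the lowest value being -0.06, and it was -0.28 among libraries without Y-linked counts.

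Levels of the members can be compared only per length. Per kb of exon, the mean TMM-scaled CPM was highest for Atp5b at 589, Atp5a1 at 397 and Cox4i1 at 313, and lowest for Atp5g1 at 1.70 and Ndufab1 at 2.97. The median per kb was 47.6 in complex I, 109 in complex II, 62.6 in complex III, 59.4 in complex IV and 46.1 in complex V. The exon length here joins all annotated transcripts of a gene, so a gene with a long rare transcript has a low value.

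Members with a near-identical copy among other annotated genes had a lower median level. Another annotated transcript matched at least 75% of the coding sequence at 95% identity or more for 19 members. Their median level was 22.6 CPM per kb, against 65.0 for the 56 members with no such copy. The ranges overlapped, at 1.70 to 70.4 with a copy and 4.39 to 589 without. Whether the copies account for the difference was not tested. Atp5g1 itself had 8.20 CPM in controls and its copy 38.1 ± 8.75 CPM (SD, n = 6), and Atp5o, of the peripheral stalk, had 152 CPM beside 77.3 ± 14.9 on its copy. The copy of Atp5f1 was at 55.5 ± 12.4 CPM in controls and 45.6 ± 4.33 CPM in mutants. How reads with several alignments were counted is not given in the sources used here, so the levels of these 19 members are uncertain, as is that of Atp5l, which has 8 copies. The median log2 fold change was -0.19 for members with a copy and -0.17 for those without.

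**Figure D3:**
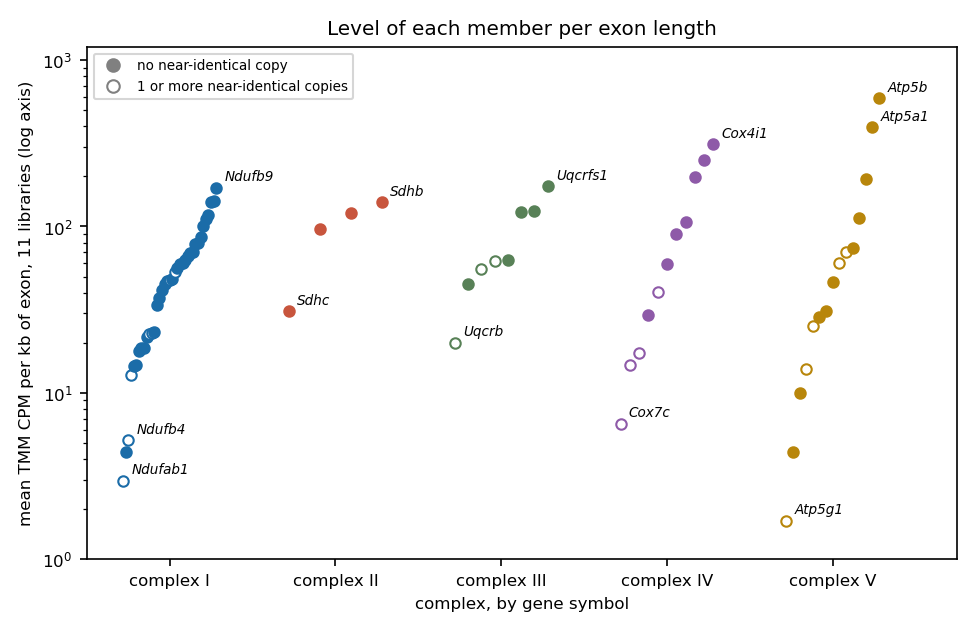
Mean TMM-scaled CPM per kb of exon over the 11 libraries (log axis) for each member, by complex, with open points for members that have a near-identical copy. Atp5b is highest at 589, and Atp5g1, which has a copy, is lowest at 1.70.

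The members are short genes, and short genes as a whole had negative values in these libraries. Their median exon length was 1718 bases against 4358 for all genes tested, while exon GC content was close, 50.02% against 49.59%. With all genes divided by exon length into 5 groups of like size, the median log2 fold change went from -0.12 in the shortest group to 0.09 in the longest. In the shortest group, which held 53 of the 75 members, the members' median was -0.16, with 44 negative, and 66.6% of all genes there were negative. The next group held 12 members, all negative, with a median of -0.19 against -0.07 for all its genes. With the trends of length and GC removed per library, the members' median was -0.10, with 57 negative, and that of all genes -0.03, and 0 members were called. The shortest group of all genes also lay highest in control 1, at a median deviation of 0.22, and lowest in mutant 3, at -0.16.

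**Figure D4:**
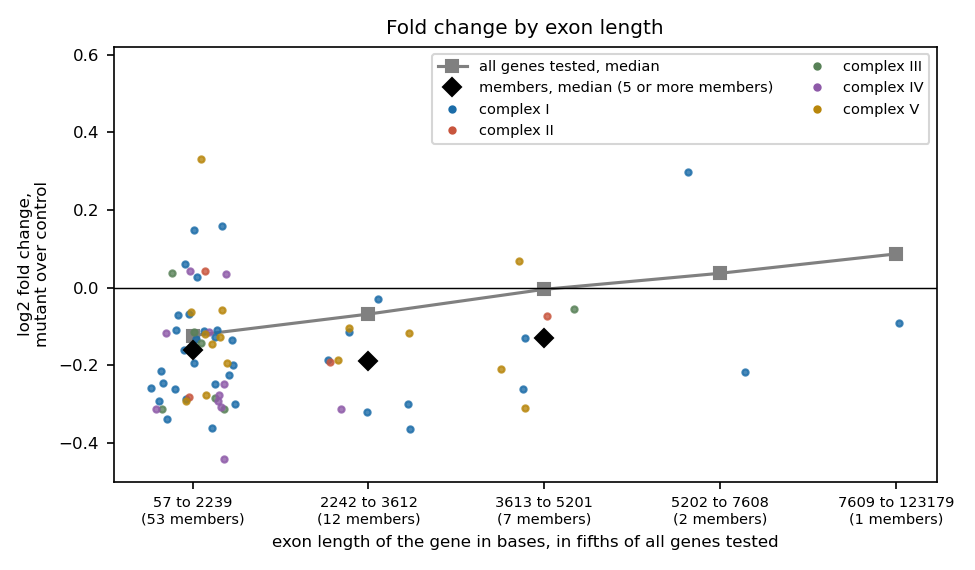
Log2 fold change, mutant over control, in 5 groups of like size by exon length, for all genes tested (median) and for the members (points, with the median where a group held at least 5 members). The median of all genes goes from -0.12 to 0.09, and 53 of the 75 members are in the shortest group.

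Subunits encoded by the mitochondrial genome, which form the core of complexes I, III, IV and V together with the nuclear-encoded members, did not share the negative values. Of 13 such genes 7 could be tested, and 0 passed in either direction. Their median was 0.24, with 6 positive and 1 negative. The largest was cytochrome b, mt-Cytb, at 1006, 2041, 2156, 1647, 2104 and 1044 CPM in controls 1 to 6 and at 2165, 2361, 2370, 2300 and 2355 CPM in mutants (log2 fold change 0.47, SE 0.18, adjusted p = 0.194). Every mutant was above every control, and controls 1 and 6 were far below the rest. Mitochondrially encoded RNA took 1.43% ± 0.275 of counts in controls (SD, n = 6) and 1.62% ± 0.0970 in mutants (n = 5; exact two-sided permutation test, p = 0.204). Control 1, highest for the nuclear-encoded members, thus had a low level of the mitochondrial ones, and control 6 was low in both, at -0.12 and -0.83.

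Assembly factors, other subunits and carriers, and genes of the citric acid cycle gave 0 calls. Of the assembly factors, 16 tested for complex I and 33 for complexes II to V, 0 passed in either direction, with medians of -0.10 and -0.11. Among 4 other subunit genes and carriers, 0 passed: the ATP synthase inhibitor Atpif1 was at -0.36 (SE 0.16, adjusted p = 0.260), cytochrome c1, Cyc1, at -0.03, and cytochrome c itself, Cycs, at 0.69 (SE 0.40, adjusted p = 0.406) from 1.76 to 7.68 CPM. Of 18 genes of pyruvate dehydrogenase and the citric acid cycle 0 passed (median -0.09), and likewise 0 of 7 adenine nucleotide carriers, porins and related channels (median -0.15).

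Of 19 glycolytic genes, 1 was called lower, beside 1.74% of all genes tested. Ldha, the lactate dehydrogenase subunit that favours lactate formation, was at 145, 171, 183, 136, 158 and 179 CPM in controls and at 111, 134, 116, 101 and 112 CPM in mutants (log2 fold change -0.50, SE 0.11, adjusted p = 0.0205). The groups do not overlap. The adjusted p was 0.0512 without control 3, 0.0592 without mutant 1, 0.0644 without mutant 4, 0.390 with the Y-linked covariate and 0.400 among libraries without Y-linked counts. The list's median was 0.03.

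Of 19 regulators tested, 1 was called lower, beside 1.74% of all genes tested. Myc, a transcription factor that promotes growth, ribosome production and mitochondrial gene expression, was at 42.4, 61.4, 61.5, 55.5, 53.9 and 48.5 CPM in controls and at 31.3, 29.5, 35.8, 25.4 and 20.1 CPM in mutants. Its log2 fold change was -0.92 (SE 0.17, adjusted p = 0.00424), with no overlap, and the adjusted p was 0.0735 with the Y-linked covariate and 0.0885 among libraries without Y-linked counts, where the value was -0.94. The factors whose motifs are shown above did not pass: Nrf1 gave -0.10 (SE 0.11, adjusted p = 0.696), Gabpa 0.25 (SE 0.17, adjusted p = 0.490), Yy1 -0.39 (SE 0.33, adjusted p = 0.604) and Esrra 0.34 (SE 0.29, adjusted p = 0.606). The coactivator Ppargc1a, chosen here after its values were seen, was at 0.892 to 15.9 CPM in controls and 10.1 to 18.2 CPM in mutants (log2 fold change 1.09, SE 0.50, adjusted p = 0.276).

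The ribosomal protein genes, a family outside the respiratory chain, had negative values too. The calls below stand beside 1.74% of all genes tested that were called lower. Of 76 mitochondrial ribosomal proteins tested, 63 were negative, the median was -0.19 and 1, Mrpl40, was lower (log2 fold change -0.57, SE 0.13, adjusted p = 0.0181). It was at 51.0 to 62.2 CPM in controls and 33.7 to 44.4 CPM in mutants, and its adjusted p was 0.0584 without mutant 1, 0.0529 without mutant 3, 0.149 with the Y-linked covariate and 0.219 among libraries without Y-linked counts. The cytosolic genes had lower counts than the members: the median of their mean levels was 14.2 CPM, against 76.4 CPM. These levels are not per length, and near-identical copies were not searched for this family. The treatment of reads with several alignments is not given, so these counts do not show how abundant the RNA was. Of 76 tested, 70 were negative, the median was -0.35 and 2 were lower, Rpl4 (-0.41, SE 0.10, adjusted p = 0.0250) and Rplp0 (-0.45, SE 0.11, adjusted p = 0.0343). Without 1 library the adjusted p of Rpl4 was 0.0538 (control 4), 0.0644 (mutant 1) or 0.0658 (mutant 3), and it was 0.0943 with the Y-linked covariate and 0.136 among libraries without Y-linked counts. That of Rplp0 was 0.0754 (control 1), 0.0600 (control 3), 0.0814 (control 4), 0.0918 (mutant 1), 0.1003 (mutant 3) or 0.0712 (mutant 4). It was 0.0533 with no filter, 0.234 with the Y-linked covariate and 0.264 among libraries without Y-linked counts. Across libraries the cytosolic list was highest in control 1, at a median deviation of 0.44, and lowest in mutant 3, at -0.40, as the members were. The part of library composition and transcript length in the members' values was not tested beyond the alternatives given here.

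Markers of other cell types had low sums in all libraries but 1. Summed over their lists, 10 microglial genes had 13.6 to 41.6 CPM in controls and 24.3 to 46.7 in mutants, 10 endothelial and pericyte genes 14.2 to 46.6 and 20.2 to 23.2 (Tek at 0 in all libraries), and 8 erythroid genes 0.636 to 5.41 and 2.20 to 5.19 (Hba-a2 and Slc4a1 at 0). The 10 genes of choroid plexus and ependyma had 7.17 to 21.3 CPM in controls and 9.10 to 12.8 CPM in mutants 1 to 4. Mutant 5 stood apart at 209.5 CPM, of which Ttr, a secreted protein of the choroid plexus, made up 193 CPM, and the other 9 genes of the list summed to 16.3 CPM there. Without mutant 5 the members' median was -0.18. The 10 muscle genes had 25.9 to 39.6 CPM in controls and 18.2 to 25.8 CPM in mutants (Ckm at 0), the only one of these lists whose groups did not overlap. Within the lineage list 1 of 14 genes passed, Gad2, an enzyme of GABA synthesis, which was higher in mutants (log2 fold change 1.01, SE 0.15, adjusted p = 8.9e-04). Among all genes tested, 2.68% were called higher. The list had 5 positive and 9 negative values. At an unadjusted p under 0.05 (edgeR), 3 genes lay higher (Gad2, Gad1 and Dcx) and 3 lower (Meis2, Sp9 and Dlx5). The shares of all genes were 8.96% and 8.35%. The part of any shift in cell makeup in the members' values was not tested.

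**Figure D5:**
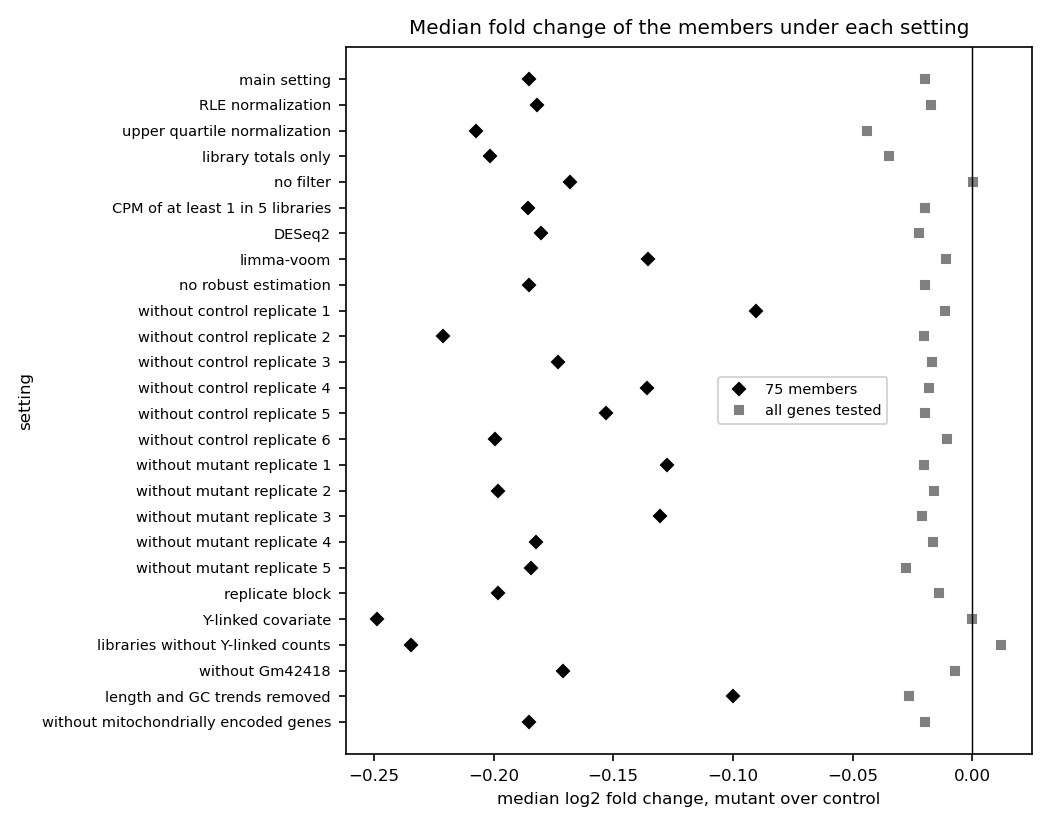
Median log2 fold change of the 75 members (diamonds) and of all genes tested (squares) under the main analysis and each of 25 alternatives. The members' median lies between -0.25 and -0.09 in all of them, nearest zero without control replicate 1.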

How the data were processed

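The authors deposited raw read counts per Ensembl gene for all 11 libraries in 1 table, and 0 columns were left unused. Per the submitters' processing notes, the tools were TopHat2 2.0.13 and featureCounts 1.4.6, with mm10 and GRCm38 as builds. Not given in the sources used here are the annotation release, whether counting used strand, and how multiply aligned reads were treated, and 20 members have exons over a gene of at least 1 CPM on the opposite strand. Groups came from the genotypes in the labels.

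Symbols, exon lengths and coordinates came from GENCODE M21 (GRCm38) and a gene name table, with 37693 of 39179 identifiers matched. The unmatched rows held 0.271% to 0.327% of counts. Near-identical copies were found with BLAST 2.17.0. The main test was that of edgeR 4.0.16 under R 4.3.3 (filterByExpr, TMM, robust quasi-likelihood fit), with Benjamini-Hochberg adjustment over the 14104 genes kept and a threshold of 0.05. Adjusted p-values are from this test unless another setting is named. Those under another setting are adjusted over the genes kept there. CPM values are scaled by TMM factors unless given by library total, as those of summed lists and of copies are. SE was derived from the F statistic. The counts of replicates differed beyond sampling noise, with a chi-square of 13.7 or more per degree of freedom. Exact permutation tests over 462 splits, whose smallest p is 0.00433, used scipy 1.17.1. The test was also run on simulated counts, with genes drawn independently and known folds larger in size than those of the members. That run does not show how the test behaves with smaller folds or with shifts shared across a library.

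The members and gene lists were chosen with earlier results of these data known. Named were, for each complex, the 3 members with the highest level per kb and the 2 with the smallest adjusted p, members with paralogous isoforms, companion genes past the threshold (up to 4 a list) and Zeb2. A member that this rule would name is not reported here. Other genes were named for their role or position after their values were seen. The pattern for cytosolic ribosomal proteins was corrected after values were seen, since it first also took Rps6k kinases. Alternatives were RLE, upper quartile and library-total scaling, no filter and a stricter filter, DESeq2 1.42.0, limma-voom (limma 3.58.1), no robust estimation, a threshold of 0.1, leaving out each library, a replicate block, a Y-linked covariate, libraries without Y-linked counts, leaving out Gm42418 (6.25% to 12.2% of counts) and removing length and GC trends. Leaving out mitochondrially encoded genes was added after seeing the data.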

Additional observations from a re-analysis of the deposited data

Results flagged for a closer look

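In 94 groups of libraries, the highest and lowest values of the named genes and library measures were compared with their nearest neighbours, and 2 stood far apart for the range of their group. Chance flags about 1 in 20 such groups. Cox7b, a small subunit of cytochrome c oxidase, was at 34.0 CPM in mutant 3, where the nearest mutant had 45.9 CPM. Sdhc, a membrane anchor of succinate dehydrogenase, was at 129 CPM in control 1, where the nearest control had 106 CPM. Mutant 3 and control 1 were also the lowest and the highest library for the members as a whole.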

How the results depend on the processing

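Under all 25 alternatives and at a threshold of 0.1, 0 members were called higher and 0 lower, and the members' median stayed negative, from -0.25 to -0.09, with 57 to 70 members negative. The smallest adjusted p of a member was 0.0505, for Atp5f1 with length and GC trends removed. Its log2 fold change was -0.69 there, beside -0.31 in the main analysis, and was the most negative value of a member under that setting. Among all genes, 623 calls became 1201 with DESeq2, 186 with the Y-linked covariate, 218 among libraries without Y-linked counts and 976 at a threshold of 0.1, and 418 to 656 when single libraries were left out. The cause was not tested; the comparison without Y-linked counts had fewer libraries and the higher threshold admits more genes. Some signs turned. With the Y-linked covariate the log2 fold change was -0.28 for Atp5g1, -0.055 for Ndufa4, 0.065 for Sdha and -0.053 for Sdhd, and among libraries without Y-linked counts it was -0.28, -0.033, 0.086 and -0.033. With length and GC trends removed it was 0.017 for Cox6a1, -0.022 for Ndufa4 and -0.0061 for Zeb2. Leaving out single libraries moved it from -0.058 to 0.25 for Atp5g1, -0.030 to 0.17 for Cox8a, -0.018 to 0.21 for Ndufa4 and -0.0082 to 0.097 for Sdhd. Same-numbered libraries did not deviate together (r from -0.18 to 0.02), so the numbers were not taken as pairs. The highest correlation of any mutant with a control was 0.21, for mutant 5 with control 6. A replicate block joins same-numbered libraries and so leaves out control 6, and it is no test of other pairings. With this block 421 genes and 0 members were called, and the members' median was -0.20. Under the block the adjusted p was 0.0659 for Ldha, 0.101 for Mrpl40, 0.0689 for Rpl4 and 0.128 for Rplp0. The low isoforms did not pass the filter on low counts.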
